A study of Danio rerio with 9 samples.

Results

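CCDC6-RET thyroid tumors of transgenic zebrafish were described by themselves, as the 4 libraries (tumors 2, 3, 5 and 6 by their replicate labels) that carry this oncogene among the 9 tumor libraries of the series. The question was which genes make up the program of these tumors, and which genes differ from tumor to tumor. Each tumor came from an adult fish in which a tol2 transgene placed human CCDC6-RET under the zebrafish thyroglobulin (tg) promoter, and total RNA of visible thyroid lesions was sequenced after TruSeq library preparation. By the methods of the study the transgene was injected into fish with a tg:TdTomato reporter, and outcrossed transgenic offspring were identified by PCR. Age at harvest, sex, clutch, dissection and sequencing run were not stated, and the labels do not say whether the libraries are from separate fish, so the spread between them may be in part technical. All 4 libraries belong to the same group, so no contrast between groups was made, and values are levels of single tumors in the order 2, 3, 5 and 6 unless stated.

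CCDC6-RET joins the dimerizing part of CCDC6 to the kinase domain of RET, which gives a kinase that signals without ligand. RET signals through RAS to the kinase ERK, whose activity is read out by immediate early genes, ETS factors of the PEA3 family, and the DUSP, Sprouty and SPRED proteins that feed back on the pathway. Thyroid follicular cells are known by transcription factors of the PAX, NKX2, FOXE1 and HHEX families and by the machinery of hormone synthesis. In that machinery slc5a5 imports iodide, duox makes hydrogen peroxide, and IYD recovers iodide. A dissected tumor also holds stroma, vessels, blood and skin, and in bulk RNA a lower level of a marker cannot tell fewer cells of a type from less RNA per cell.

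The libraries held 8662544 (tumor 3) to 13596477 (tumor 2) counts, and 15641 of 27158 genes had 10 or more counts in at least 2 of them and were kept. Levels are given as CPM, the standard unit that puts the count of a gene relative to the total of its library, with totals scaled by the trimmed mean of M values (factors 0.938 to 1.06), and a CPM value also depends on transcript length, so it was compared between tumors and not between genes. Pearson correlation of log2 CPM across genes ran from 0.869 (tumors 5 and 6) to 0.926 (tumors 2 and 6). Mitochondrially encoded genes took 1.87, 5.40, 2.90 and 2.88% of counts in tumors 2, 3, 5 and 6, so tumor 3, the library of least depth, also stood apart in this share. The median difference of a tumor from the mean of each gene stayed within -0.07 and 0.10 on the log2 scale for each of chromosomes 1 to 25. The fish ret gene had 2, 3, 2 and 4 counts and was not kept, and since the transgene is of human sequence no fish gene checks the label.

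By the mean over the 4 tumors, a complement protease and a thyroid product took the largest shares of counts, though not in each tumor. The 25 genes with the largest mean level took 14.01 ± 1.17% of counts (SD, n = 4, range 12.5 to 15.0%), and the largest 1000 took 61.1 ± 1.31%. Complement factor D (cfd), a serine protease of the alternative complement pathway, stood at 20963, 13304, 41243 and 6759 CPM. Its level was 6.10-fold higher in tumor 5 than in tumor 6. Thyroglobulin (tg), the protein on which thyroid hormone is made and whose promoter drives the transgene, stood at 27670.1, 11701, 17051 and 14889 CPM. Tumor 2 was highest and tumor 3 lowest in tg, a range of 2.36-fold. Together both genes took 3.92 ± 2.02% of counts (SD, n = 4). In tumor 3 the mitochondrially encoded mt-co1 (17753 CPM) and eef1a1l2 (14176 CPM) took more counts than cfd or tg. In tumor 6 mt-co1 (10756 CPM), actb2 (9998 CPM), eef1a1l2 (8335 CPM) and krt18 (7280 CPM) took more than cfd.

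**Figure D1:**
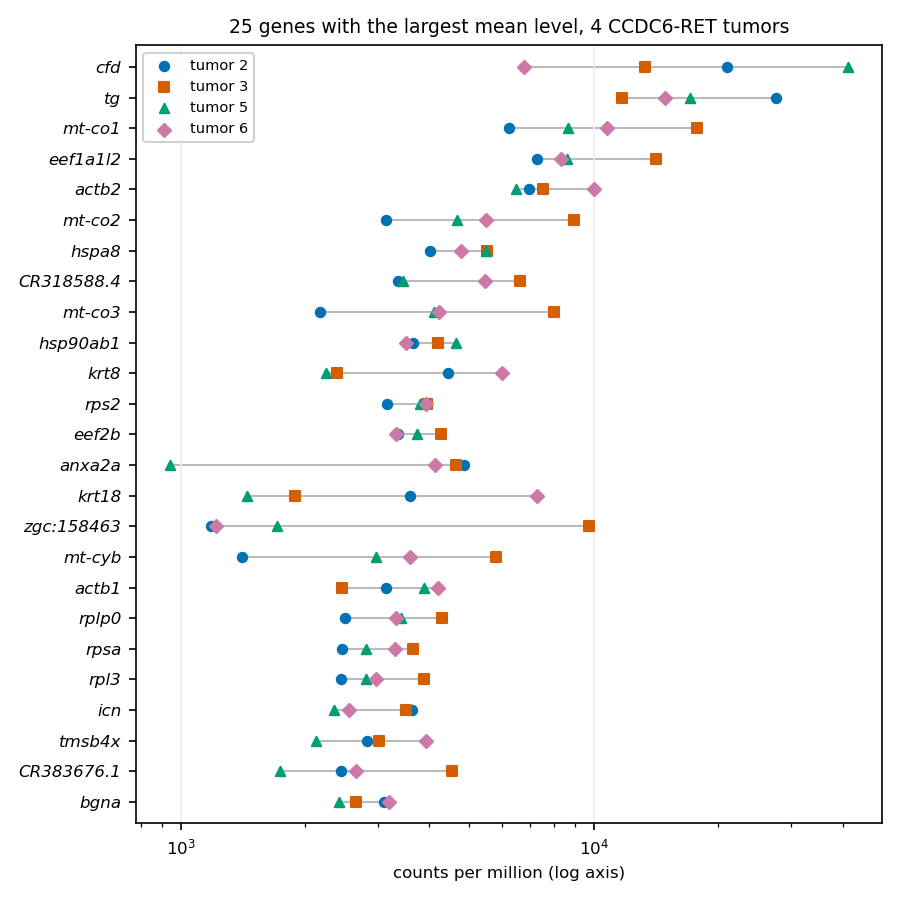
Levels of the 25 genes with the largest mean level, as CPM on a log axis, with 1 point for each of the 4 CCDC6-RET tumors and a grey line from the lowest to the highest. cfd spans 6759 to 41243 CPM, tg spans 11701 to 27670.1 CPM, and 14 of the 25 genes range under 2-fold.

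Of these 25 genes 14 ranged under 2-fold and 11 ranged 2-fold or more, against 47.7% of all kept genes. A range of 4-fold or more was found in 5, against 20.0% of all kept genes. In the highest of the 10 bins of level described below the share was 7.10%. The chaperone hspa8 had 4003, 5502, 5489 and 4778 CPM, and hsp90ab1 had 3656, 4187, 4645 and 3514 CPM. Neither gene reached a range of 2-fold. The 5 with a wide range were cfd, anxa2a, krt18, zgc:158463 and mt-cyb. Cytochrome b (mt-cyb), a mitochondrially encoded subunit of the respiratory chain, had 1405, 5811, 2972 and 3593 CPM, lowest in tumor 2 and highest in tumor 3. Annexin A2 (anxa2a), a membrane-binding protein, had 4837, 4649, 941 and 4123 CPM, with tumor 5 well below the other 3. The keratin krt18 of simple epithelia had 3594, 1887, 1450.0 and 7279.8 CPM, and its partner krt8 had 4427, 2392, 2242 and 5979 CPM. Both keratins were high in tumors 2 and 6 and low in tumors 3 and 5, with no overlap between these pairs. The same order was found in 18.2% of all kept genes. The gene zgc:158463, to which the files give no name, had 1181, 9711, 1707 and 1216 CPM and was high in tumor 3 alone. Ictacalcin (icn), a calcium-binding S100 protein of fish, had 3625, 3514, 2345 and 2553 CPM, and the matrix proteoglycan biglycan (bgna) had 3110.1, 2653, 2416 and 3188 CPM, both within a 2-fold range.

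Most genes differed between tumors by more than counting error, and a minority differed by a lot. A test of the index of dispersion (chi-square against Poisson counts, Benjamini-Hochberg adjusted p under 0.05) called 13355 of 15641 kept genes, or 85.4%, so this call says little of a single gene at this depth. A range of at least 4-fold between the highest and the lowest tumor was found for 3132 genes (20.0%), and one of at least 2-fold for 7453 (47.7%). The median gene ranged 1.93-fold, with an SD of 0.43 on the log2 scale. The biological coefficient of variation, the relative spread between libraries beyond counting error, was 0.489 over all kept genes. Its trend fell from 0.673 for genes at the 10th percentile of level to 0.373 at the 75th.

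Because spread falls with level, the 11255 genes with a mean of at least 5 CPM were ranked for spread within 10 bins of level. The median SD of log2 CPM was 0.76 in the lowest bin, where 42.8% of genes ranged 4-fold, and 0.26 in bins 7 to 9, where 5.69 to 6.49% did. In the top bin it was 0.29, with 7.10% of genes ranging 4-fold. The SD that counting error alone gives was 0.17 in the lowest and 0.03 in the top bin, so at high level nearly all of the spread lay outside counting error.

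**Figure D2:**
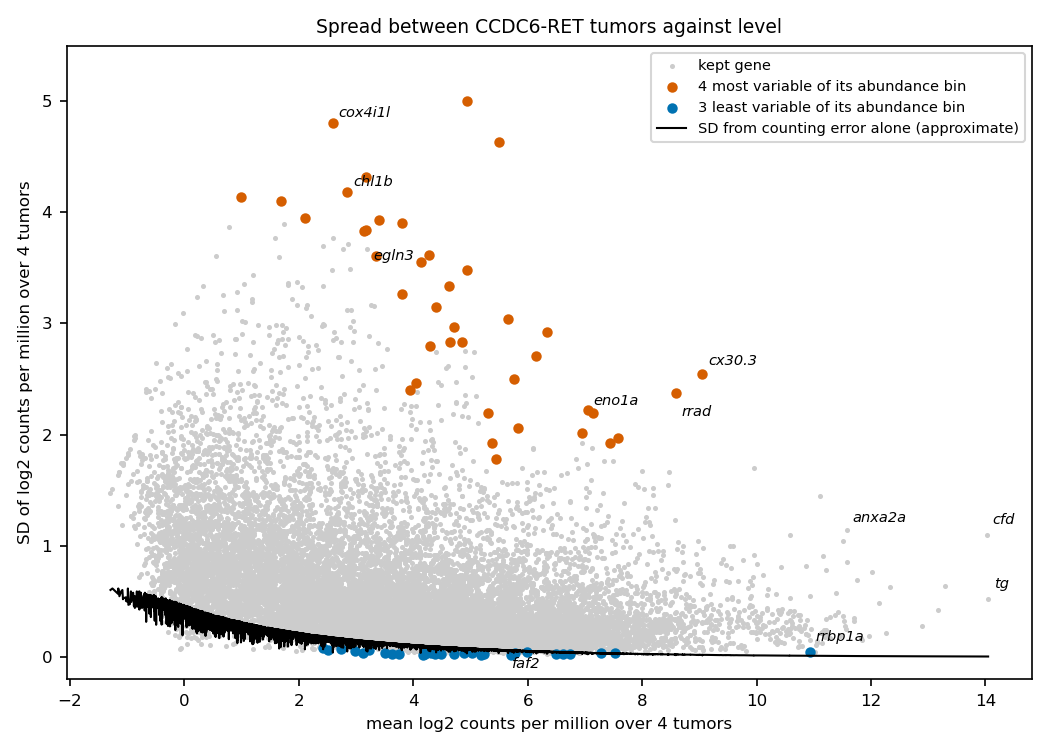
SD of log2 CPM over the 4 tumors against mean log2 CPM, with 1 point for each kept gene. Orange points are the 4 most variable and blue points the 3 least variable genes of each of 10 bins of level, and the black line is the approximate SD from counting error alone. Orange genes reach an SD of 5.01 and blue genes lie close to the line.

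Of the 4 most variable genes of the top bin 3 were lowest in tumor 5. The connexin cx30.3, a gap junction channel protein, had 1106, 522, 46.8 and 2927 CPM, a 62.5-fold range. The GTPase rrad, a small Ras relative that restrains calcium channels, had 1218, 345, 39.0 and 1334 CPM. Collagen VI alpha 3 (col6a3) had 427, 139, 28.5 and 527 CPM. In each of these 3 genes tumor 5 lay far under the other tumors, with tumor 6 highest. The remaining gene of the 4, si:ch211-98n17.5, had 35.2, 217, 172 and 995 CPM and was lowest in tumor 2.

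In the bins below, the most variable genes were of several kinds. Glycolytic eno1a and the circadian repressor nr1d2a were among them. The protease gene prss35 had 264, 61.5, 502 and 5.06 CPM and was nearly lost in tumor 6. The heparan sulfate proteoglycan agrin (agrn) had 64.3, 266, 16.2 and 8.60 CPM, highest in tumor 3. The small heat shock protein hspb1 had 290.1, 22.2, 9.20 and 421 CPM, with tumors 2 and 6 far above the other 2. The matrix protease mmp9 had 28.7, 114, 1.62 and 115 CPM, low in tumor 5.

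The least variable genes at the same levels had nearly equal levels in the 4 tumors. The ER protein rrbp1a, a ribosome receptor of secretory cells, was the steadiest gene of the top bin, with 1870.4, 1953, 2001 and 1975 CPM. The nuclear import receptor kpna4 had 109, 106, 106 and 104 CPM, and the chromatin protein morc2 had 96.3, 98.6, 99.1 and 96.0 CPM. The ubiquitin-binding protein faf2 had 51.1, 52.6, 52.3 and 52.2 CPM. These genes ranged from 1.03-fold (faf2) to 1.07-fold (rrbp1a), and of them rrbp1a alone passed the dispersion test.

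Genes of thyroid identity were found in all 4 tumors, and some of them varied widely. Of 32 entries of the thyroid list 27 matched a gene and 21 were kept, and 8 of these 21 ranged 4-fold or more, against 20.0% of all kept genes. Their summed level was 30049, 14186, 20059 and 17882 CPM, of which tg was the main part. The factor pax2a had 659, 1534, 1692 and 1124 CPM, nkx2.4b had 245, 150.4, 284 and 313 CPM, and foxe1 had 252, 109.8, 201 and 258 CPM. All 3 were well expressed in every tumor, with ranges of 2.08 to 2.57-fold. The factor pax8 was less even, with 43.8, 101, 56.7 and 189 CPM, lowest in tumor 2 and highest in tumor 6. The homeobox gene hhex (CABZ01079847.1 in the file) had 85.7, 41.0, 26.2 and 91.7 CPM, higher in tumors 2 and 6. The TSH receptor tshr, which carries the pituitary signal to the thyroid, had 159.6, 57.2, 179.6 and 150.4 CPM and was low in tumor 3 alone.

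Some genes of the list split the tumors into pairs, 2 and 6 against 3 and 5. The kidney-type cadherin cdh16, an adhesion protein of thyroid follicular cells, had 36.1, 6.03, 1.03 and 39.9 CPM. The oxidase duox had 255, 86.7, 61.0 and 153 CPM, and the iodide-recovering enzyme IYD had 165, 87.3, 59.5 and 280.0 CPM. All 3 genes were higher in tumors 2 and 6 than in tumors 3 and 5, with no overlap. The iodide importer slc5a5 ran the other way, with 6.74, 64.9, 194 and 9.49 CPM, highest in tumor 5. The deiodinase dio1, which activates the prohormone, had 11.7, 22.8, 85.5 and 24.8 CPM and was also highest in tumor 5. Over the list 10 of 21 genes had both tumors 2 and 6 above the other tumors, against 18.2% of all kept genes, and 4 had both tumors 3 and 5 above, against 18.8%. The gene duox2 in the file carries another symbol in the reference table, so its 87.4, 37.3, 31.8 and 87.5 CPM cannot be assigned with certainty. The epidermis list, whose keratins are also made by simple epithelia, had a summed level of 16571, 13433, 9317 and 23196 CPM, largest in tumors 6 and 2. By gene, 8 of its 34 kept members had both tumors 2 and 6 above the others, against 18.2% of all kept genes. For the pair of tumors 2 and 3 this number was 12, against 10.1%. Tumor 5 was lowest in 25 of the 34 members, against 25.2% of all kept genes. The part of this list in the thyroid values was not tested.

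**Figure D3:**
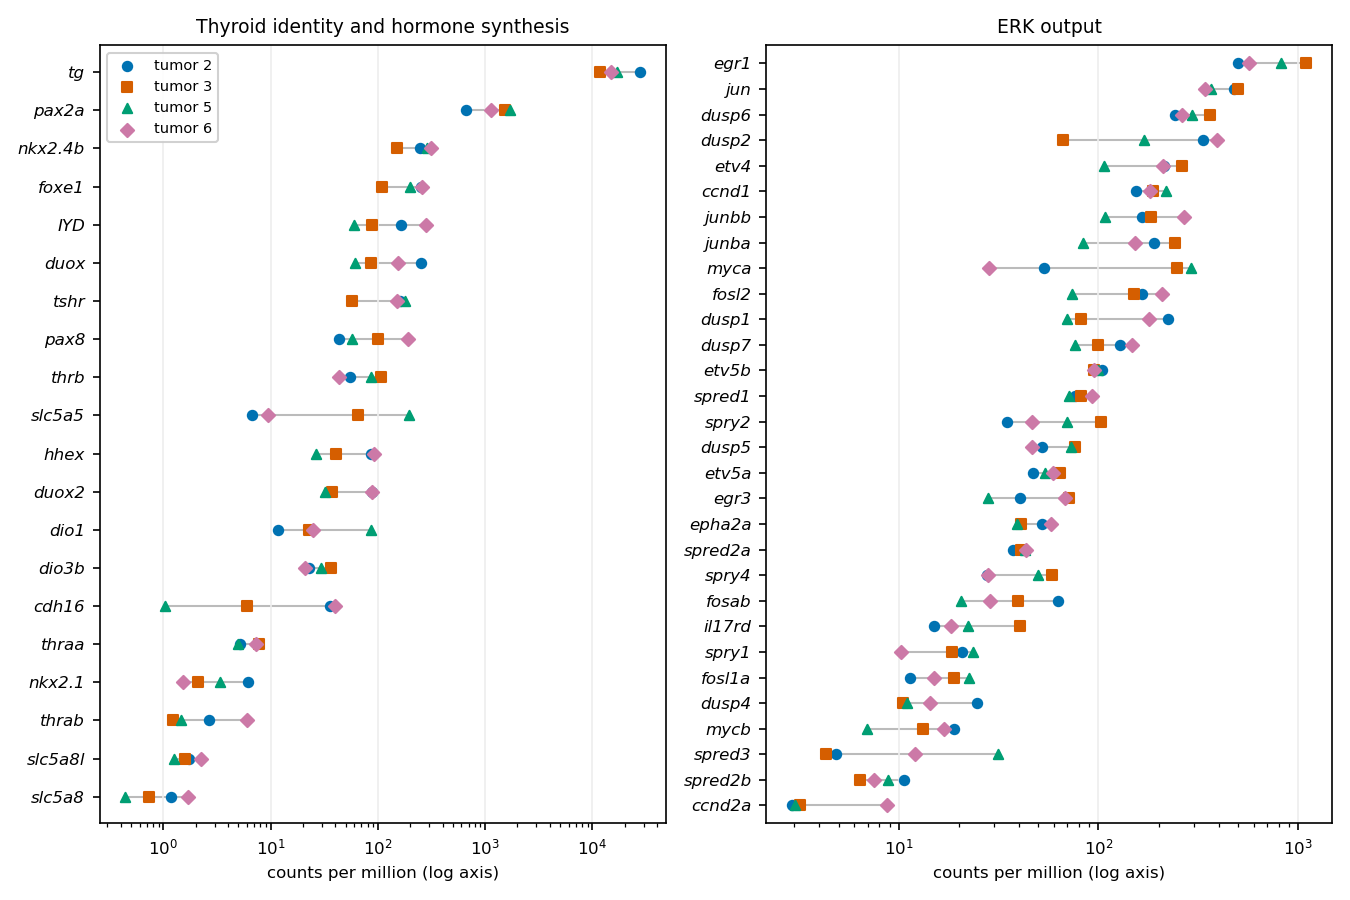
Levels in CPM on log axes of kept genes of the thyroid list, 1 left out (left), and of the ERK output list (right), with 1 point for each tumor. The lines for slc5a5 and cdh16 are the longest on the left. On the right most lines are short, and dusp2, myca and spred3 are the 3 genes with a range of at least 4-fold.

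Most ERK output genes ranged under 4-fold, as did most kept genes. Of 36 entries 30 genes were kept, and 3 of them ranged 4-fold or more, against 20.0% of all kept genes. Their median SD was 0.55 on the log2 scale, above the 0.43 of all kept genes. In the 4 bins of highest level 5.69 to 7.10% of genes ranged 4-fold, and the median SD was 0.26 to 0.29. The ERK output list was thus not steadier than those bins, though its genes were not matched for level. The summed level was 3498, 4268, 3360.2 and 3617 CPM. Of the 30 genes 28 (93.3%) passed the dispersion test, against 85.4% of all kept genes. The ETS factor etv5b had 104, 94.9, 100.1 and 95.2 CPM and did not pass the dispersion test. The feedback inhibitor spred2a, with 37.2, 41.1, 42.8 and 43.6 CPM, did not pass it either. The ERK phosphatase dusp6 had 241, 362, 294 and 263 CPM, the ETS factor etv4 had 213, 263, 106 and 209.9 CPM, and cyclin D1 (ccnd1) had 154, 187, 218 and 181 CPM. The widest range of these 5 genes was 2.47-fold, in etv4.

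The 3 exceptions did not share a direction. The transcription factor myca had 53.5, 248, 291 and 28.4 CPM, high in tumors 3 and 5. The phosphatase dusp2 had 334, 66.7, 169.7 and 394 CPM, lowest in tumor 3. The inhibitor spred3 had 4.87, 4.31, 31.4 and 12.1 CPM, highest in tumor 5. The early gene egr1 had 498, 1099, 824 and 569.8 CPM and was highest in tumor 3, as was the inhibitor spry2 with 34.8, 103, 69.7 and 46.7 CPM.

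Receptors upstream of ERK varied between the tumors in level and in order. Of 85 entries for FGF signalling and receptor tyrosine kinases 45 genes were kept. Of these 23 (51.1%) ranged 4-fold or more, against 20.0% of all kept genes and 42.8% of the lowest bin of level. The list was not matched for level, and some of its members given below had low levels. The receptor fgfr4 had 129, 258, 240.1 and 54.2 CPM, lowest in tumor 6. Its relative fgfr2 had 113, 67.0, 64.6 and 158 CPM, and fgfr1a had 16.3, 33.6, 38.8 and 51.4 CPM, both highest in tumor 6. Tumors 3 and 5 were thus above tumors 2 and 6 in fgfr4 and below them in fgfr2. In fgfr1a tumors 3 and 5 lay above tumor 2, as in fgfr4, and below tumor 6. Both fgfr2 and fgfr1a were chosen after their values were seen. The kinase alk had 1.39, 145, 22.1 and 1.51 CPM, a 104-fold range, with tumors 3 and 5 high. The HGF receptor met had 48.8, 5.42, 14.1 and 28.6 CPM, high in tumor 2. The ligands fgf18b, with 0.765, 26.1, 1.33 and 4.97 CPM, and fgf22, with 1.04, 1.72, 17.6 and 0.443 CPM, were each high in a single tumor. The co-receptor gfra1b, which with its ligand activates normal RET, had 1.46, 0.369, 24.7 and 0.443 CPM and was high in tumor 5 alone, while the fish ret gene stayed at 4 counts or fewer in every library. By contrast igf1rb had 125, 139, 123 and 95.1 CPM and the FGFR adaptor frs2b had 35.4, 41.2, 32.9 and 41.7 CPM, with ranges of 1.47 and 1.27-fold.

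Most genes of the secretory path ranged under 4-fold. All 39 genes for folding and secretion in the ER were kept, and 4 of them ranged 4-fold, against 20.0% of all kept genes and 5.69 to 7.10% in the 4 bins of highest level. The summed level was 10169, 10870.5, 12356 and 10646 CPM. The chaperone hspa5 had 615, 379, 936 and 289 CPM, highest in tumor 5, and the cyclophilin ppib had 1260.2, 1177, 1457 and 1262 CPM. No kept gene of the 17 for lysosomes and thyroglobulin breakdown ranged 4-fold, against the same 20.0% and 5.69 to 7.10%. Tumor 5 was nonetheless lowest in 11 of these 17 genes, against 25.2% of all kept genes. The largest of them, cathepsin B (ctsba), had 3525, 3549.7, 936 and 2369 CPM.

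Ribosomal protein genes and mitochondrially encoded genes were mostly highest in tumor 3. All 73 kept genes for cytosolic ribosomal proteins stayed under a 4-fold range, which 20.0% of all kept genes and 7.10% of the top bin reached. Tumor 3 was highest in 67 of them, against 29.2% of all kept genes, and tumor 2 lowest in 71, against 20.6%. Their summed level was 92594, 144085, 107502 and 119696 CPM. The list of 35 respiratory chain genes summed to 20930.1, 59157, 31167 and 33368 CPM. Of its members the mitochondrially encoded genes carried this difference, for example mt-co1 with 6233, 17753, 8650.4 and 10756 CPM and mt-nd4 with 772, 2956, 1323 and 1201 CPM. Of the 22 nuclear members 19 ranged under 2-fold and 3 ranged 2-fold or more, against 47.7% of all kept genes. Among the 19 were the ATP synthase subunit atp5b with 694, 664, 869 and 681 CPM and the oxidase subunit cox4i1 with 276, 284, 329 and 305 CPM. The smaller depth of tumor 3 and its mitochondrial share moved with these values, and their part in them was not tested.

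Proliferation genes set tumors 2 and 5 above tumors 3 and 6. Of 62 kept genes of DNA replication and mitosis, 57 had both tumors 2 and 5 above the other tumors, against 22.2% of all kept genes. The replication clamp pcna had 584, 237, 542 and 341 CPM, and the replicative helicase subunit mcm2 had 133, 61.4, 152 and 64.2 CPM. The mitotic marker mki67 had 228, 147, 217 and 142 CPM, and topoisomerase top2a had 222, 99.8, 213 and 107 CPM. Of the 62 genes 4 ranged 4-fold, against 20.0% of all kept genes. The summed level was 4712, 2859.9, 4739 and 2832 CPM. The G1/S cyclin ccne1 had 16.3, 13.3, 15.7 and 13.1 CPM and did not pass the dispersion test. Endothelial genes had the opposite pairing, with a sum of 311, 744, 227 and 736 CPM, and their part in the proliferation values was not tested.

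Tumor 6 stood apart in genes of hypoxia and glycolysis. Hypoxia-inducible factors are transcription factors, degraded when oxygen is at hand, that raise glycolytic enzymes, collagen hydroxylases and their own negative regulators. Of 43 kept genes 27 ranged 4-fold or more (62.8%, against 20.0%), and tumor 6 was highest in 29, against 25.4% of all kept genes. The median difference from each gene's mean over the tumors was -0.20, -0.43, -0.73 and 1.35 on the log2 scale, and the summed level was 4215, 4258, 3243 and 14193 CPM. Tumors 2, 3 and 5 did not differ by as much among themselves in the sum as any of them did from tumor 6.

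**Figure D4:**
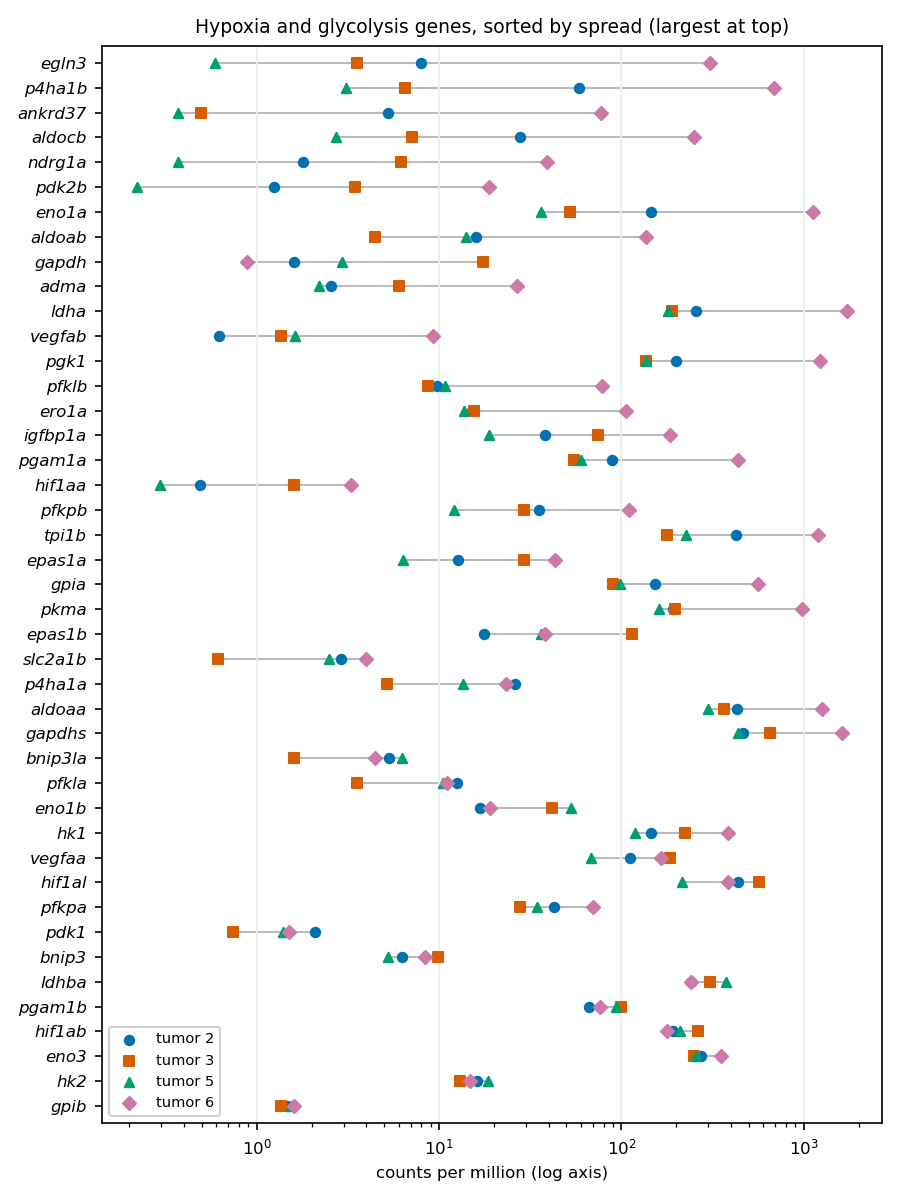
Levels in CPM on a log axis of the 43 kept hypoxia and glycolysis genes, sorted by their SD of log2 CPM, with 1 point for each tumor. In the upper part of the plot the points of tumor 6 lie to the right and those of tumor 5 mostly to the left. Genes in the lower part, such as hk2 and eno3, keep their 4 points close together.

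The prolyl hydroxylase egln3, which marks hypoxia-inducible factors for destruction and is itself induced by them, had 7.92, 3.57, 0.589 and 308 CPM, a 523-fold range. The collagen hydroxylase p4ha1b had 58.3, 6.52, 3.09 and 691 CPM, and ankrd37 had 5.28, 0.492, 0.368 and 77.4 CPM. In all 3 genes tumor 6 was highest, followed by tumor 2. The glycolytic enzymes followed the same order at the top. Enolase eno1a had 145, 52.4, 36.1 and 1119.6 CPM, lactate dehydrogenase ldha had 256, 189, 179.5 and 1718 CPM, and phosphoglycerate kinase pgk1 had 198, 137, 137 and 1225 CPM. Aldolase aldocb had 27.9, 7.14, 2.72 and 250.0 CPM. For ldha and pgk1 tumors 2, 3 and 5 lay together and tumor 6 alone was high.

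Not every member was highest in tumor 6. Hexokinase hk2 had 16.3, 13.0, 18.6 and 14.8 CPM, and lactate dehydrogenase ldhba had 240.0, 307, 374 and 242 CPM. The factor hif1ab had 193, 265, 209.8 and 178 CPM, and the angiogenic factor vegfaa had 112, 186, 68.0 and 164 CPM. In none of these 4 genes was tumor 6 highest. The other factor gene epas1b was highest in tumor 3, with 17.7, 115, 36.1 and 38.2 CPM.

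Some subunit genes of the respiratory chain followed the same order, among them the other 3 nuclear members of that list. The subunit gene cox4i1l had 13.2, 0.492, 0.147 and 476 CPM, with 4 and 2 counts in tumors 3 and 5, and was the most variable gene of its bin. The subunit genes ndufa4 (ndufa4b in the reference), with 6.46, 1.23, 0.0736 and 152 CPM, and cox6b1, with 76.7, 14.5, 5.45 and 212 CPM, were also highest in tumor 6 and lowest in tumor 5, as was cox5b2 with 3.89, 1.48, 0.442 and 30.9 CPM. The related gene cox4i1 was even, as given above. Myoglobin (mb), an oxygen-binding protein, had 10.9, 8.49, 1.55 and 569 CPM, and muscle creatine kinase ckma had 1.11, 8.74, 1.69 and 0.887 CPM. The whole skeletal muscle list, mb included, summed to 1900.1, 2016, 2024 and 3186 CPM. Of its 29 kept genes tumor 6 was highest in 10, against 25.4% of all kept genes, and lowest in 12, against 26.1%. The part of muscle in the mb values was not tested. The lactate exporter slc16a3, with 1.60, 0.492, 0.0736 and 45.7 CPM, and the secreted lipase inhibitor angptl4, with 10.8, 16.7, 2.28 and 436 CPM, were high in tumor 6 as well. The erythroid list summed to 922, 1067, 414 and 2064 CPM and the endothelial list to 311, 744, 227 and 736 CPM. Both sums were thus at or near their highest in tumor 6. By gene, tumor 6 was highest in 8 of 21 kept erythroid genes, against 25.4% of all kept genes, and lowest in 7, against 26.1%. The part of blood and vessel genes in the hypoxia values was not tested.

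Most endothelial, macrophage and fibroblast genes were higher in tumors 3 and 6 than in tumors 2 and 5. Of 34 kept endothelial genes 26 had both tumors 3 and 6 above the others, against 21.6% of all kept genes, and 25 (73.5%, against 20.0%) ranged 4-fold or more. The junction protein cdh5 had 30.2, 102, 28.6 and 108 CPM, the VEGF receptor kdrl had 29.7, 99.8, 43.6 and 121 CPM, and the receptor tek had 5.56, 15.1, 2.21 and 14.9 CPM. In all 3 the pairs did not overlap. Of 32 kept macrophage genes 21 followed this pairing and tumor 5 was lowest in 27, against 25.2% of all kept genes. The lysosomal protein cd68 (si:ch211-212k18.7 in the file) had 520.4, 837, 458 and 614 CPM, and the scavenger receptor marco had 13.7, 29.0, 4.05 and 42.6 CPM. The pan-leukocyte phosphatase ptprc had 5.07, 22.4, 1.77 and 8.96 CPM, highest in tumor 3 and lowest in tumor 5. Of lymphocyte and granulocyte defining markers, cd79a had 12 counts, cd79b 27, cd8a 40, lck 17, mpx 16 and lyz 4 over all 4 libraries. The T cell kinase itk was less scarce, with 93, 182, 1 and 93 counts. The T and NK list summed to 176, 253, 83.3 and 139 CPM, and the neutrophil list to 425, 578, 345 and 629 CPM.

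Fibroblast and collagen genes were mostly lowest in tumor 5. Of 47 kept genes 31 (66.0%, against 20.0% of all kept genes) ranged 4-fold. Tumor 5 was lowest in 35, against 25.2%, and 26 had tumors 3 and 6 above the others, against 21.6%. By the summed level tumor 2 was above tumor 3, with 7815, 7088, 5155 and 8461 CPM. The osteonectin gene sparc was even, with 1286, 1468, 1219 and 1289 CPM, like biglycan above. Collagen I alpha 1 (col1a1a) had 57.8, 292, 24.7 and 111 CPM, and fibronectin fn1a had 15.4, 74.6, 5.23 and 147 CPM. The mesenchymal transcription factor tcf21 had 56.0, 8.37, 0.147 and 69.8 CPM, with 2 counts in tumor 5. The proteoglycan lumican (lum) had 7.09, 19.2, 0.884 and 22.0 CPM. Tumor 5 was lowest in each of these genes, with a range of 1.205-fold in sparc and 1.32-fold in bgna.

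Of 21 kept erythroid genes 10 had both tumors 3 and 6 above the others, against 21.6% of all kept genes. The globin hbba1 had 88.3, 361, 26.9 and 434 CPM, and the heme enzyme alas2 had 18.8, 47.0, 4.71 and 111 CPM, both highest in tumor 6. The globin hbba2 had 2.71, 32.0, 3.76 and 0.0887 CPM, with 1 count in tumor 6, so the order of tumors 3 and 6 differed between these globins. Globin copies are near-identical in sequence, and reads can be split between them.

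**Figure D5:**
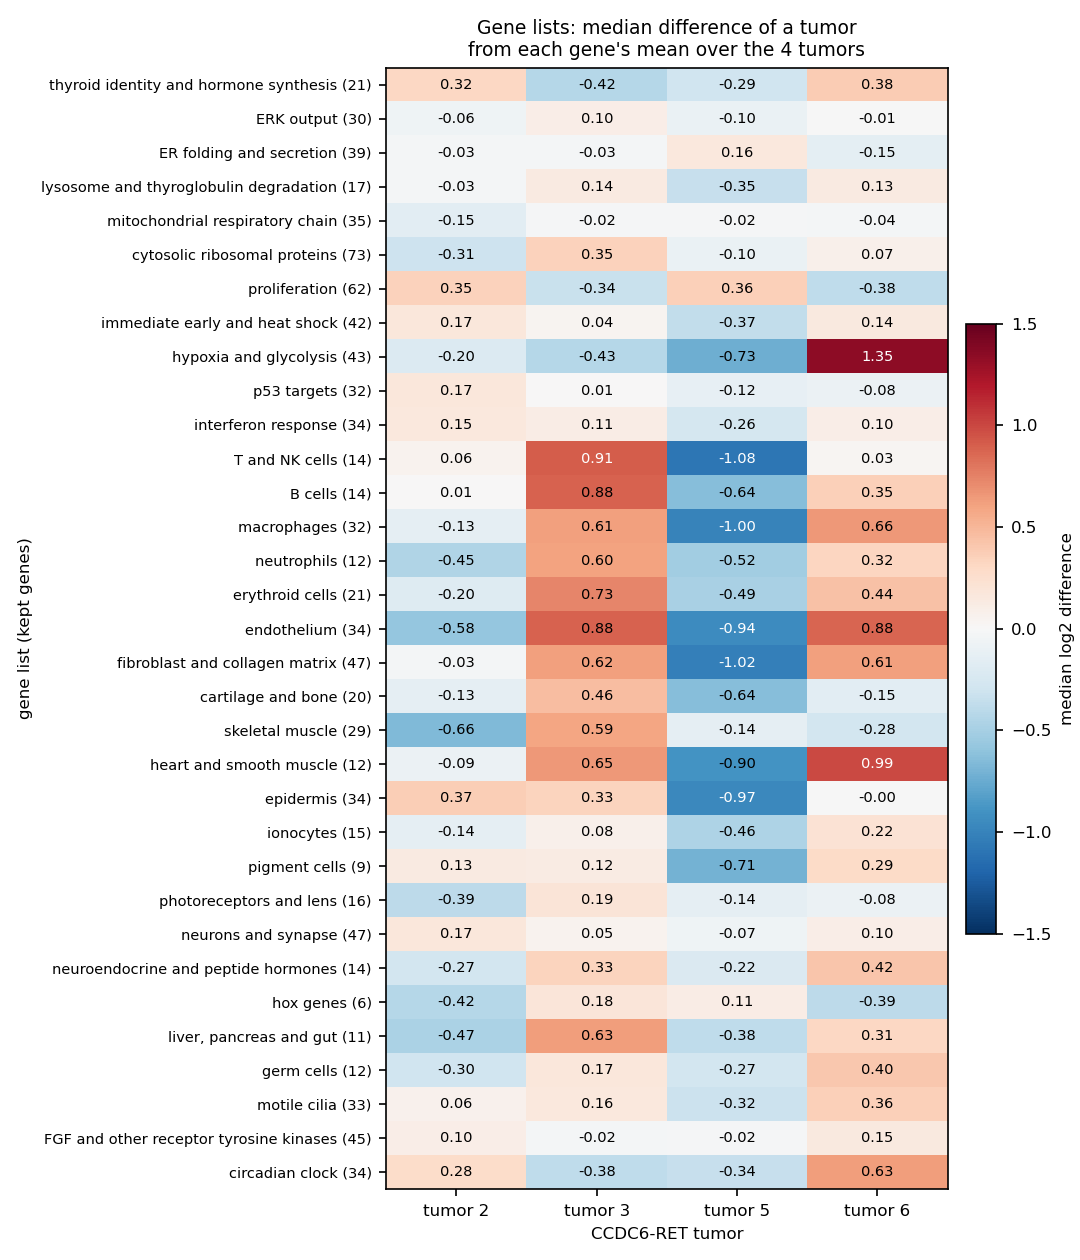
Median over the kept genes of each list of the log2 difference between a tumor and the mean of that gene over the 4 tumors. Red is above and blue below the mean, and numbers in parentheses count kept genes. Hypoxia and glycolysis in tumor 6 (1.35) is the largest value, and tumor 5 is blue for stroma, leukocytes and epidermis, while the circadian clock list was added after its values were seen.

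Defining markers of nerve and heart were at or near 0, and those of liver and pigment were at low counts. The neuronal genes elavl3 and snap25a had 0 counts in all 4 libraries, which allows up to 0.209 to 0.369 CPM by library for a count of 0. The cardiac light chain myl7 had 1 count in all, the liver gene fabp10a 36 and the pigment gene mlpha 4. Neuronal list members were nonetheless present in part, since 47 of 103 entries were kept. Of skin markers the basal keratin krt5 had 133, 48.3, 11.8 and 7.54 CPM, and the basal factor tp63 had 8.62, 4.19, 5.30 and 4.43 CPM. The muscle actin actc1b had 1.81, 11.3, 10.31 and 1.42 CPM, a low level in every tumor.

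Genes that vary together were then grouped by the largest gap between the tumors. A gap of at least a share of 0.5 of the whole log2 range, in a gene with a 4-fold range, set 1 or 2 tumors apart in 2312 of the 3132 genes. In 656 genes a single tumor was high, in 1009 a single tumor was low, and in 647 the tumors split into pairs. The largest groups were tumor 5 low (403 genes), tumor 3 low (351), tumor 3 high (286), tumor 6 high (227), and tumors 3 and 6 against 2 and 5 (213). The pair of tumors 5 and 6 stood above 2 and 3 in 15 genes. Over all kept genes, with no gap asked for, tumor 3 was lowest in 28.1%, and tumors 5 and 6 were both above the others in 9.10%. The filter of 10 counts in 2 libraries takes out genes found in 1 tumor alone but keeps genes missing in 1 tumor. Without it tumor 3 high became the largest group (668 genes), ahead of tumor 5 low (451), tumor 6 high (447) and tumor 3 low (445). Other settings changed the order too. With plain library totals tumor 3 low led (444 genes, against 384 for tumor 5 low), as it did at a 2-fold range (1081 against 642). With a prior count of 10 tumor 3 high led (264), followed by tumor 6 high (218) and tumor 5 low (213). The first principal component of log2 CPM (44.4% of variance) set tumor 5 (loading 0.76) against tumor 6 (-0.62). The second (38.5%) set tumor 3 (0.83) against tumors 2 (-0.43) and 6 (-0.34), with tumor 5 between them at -0.055.

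Genes with tumor 3 high included transcription factors and adhesion molecules, shown here as single genes. The neurons and synapse list did not share this, since tumor 3 was highest in 11 of 47 kept genes, against 29.2% of all kept genes, and its sum was 4197, 4072, 4258 and 3894 CPM. The adhesion molecule chl1b had 6.12, 426, 0.368 and 1.69 CPM, a 1156-fold range. The transcription factors sox2, with 6.53, 126, 9.87 and 0.0887 CPM, and six1a, with 19.0, 215, 54.6 and 0.443 CPM, were highest in tumor 3 and lowest in tumor 6. The splicing factor rbfox1 had 0.765, 44.4, 1.47 and 1.33 CPM, the homeobox gene nkx2.2b had 0.278, 31.9, 1.40 and 0.355 CPM, and the receptor phosphatase ptprz1b had 2.92, 59.21, 1.03 and 0.532 CPM. None of these 3 exceeded 2.92 CPM in another tumor. Tumor 3 was low in the glutamine transporter slc38a3a, with 119, 1.23, 99.7 and 28.3 CPM, and in the peptide hormone receptor calcrla, with 64.3, 0.739, 11.0 and 22.0 CPM.

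Tumors 3 and 5 shared a further set. The scaffold protein ush1c, of sensory hair cell bundles and gut brush border, had 4.17, 327, 90.6 and 2.66 CPM, the GABA transporter slc32a1 had 1.11, 68.8, 44.5 and 0.177 CPM, and the nicotinic receptor subunit chrna3 had 0, 36.1, 14.8 and 0 CPM. In tumors 2 and 6 chrna3 had no counts. The genes slc5a5, myca and alk above were also higher in tumors 3 and 5, though in slc5a5 and myca tumor 5 was above tumor 3.

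Among the genes grouped by their gap, tumor 5 alone was high in 79 and alone low in 403. With no filter these numbers were 189 and 451. Over all kept genes tumor 5 was highest in 23.3% and lowest in 25.2%. The glutamate transporter slc1a2b had 0.556, 0.492, 41.6 and 1.24 CPM, the growth factor pleiotrophin (ptn) had 4.73, 3.45, 96.8 and 3.81 CPM, and the adhesion molecule cntn1b had 1.67, 1.72, 34.8 and 0.532 CPM. In each of these tumor 5 alone was high. Of 29 genes with at most 3 counts in 1 tumor and at least 5 CPM in each of the others, 18 were missing in tumor 5, 3 in tumor 2, and 4 each in tumors 3 and 6. The opposite case, a gene found in 1 tumor alone, could not be counted among kept genes, since the filter asks for counts in at least 2 libraries.

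Some of the genes missing in tumor 5 were neighbors. On chromosome 15 of GRCz10 the genes si:ch211-181d7.1 (2 gene entries of this symbol, from 42734793 to 42780368) and si:ch211-181d7.3 (42785207 to 42804045, nlrc11 in the reference) had 0 counts in tumor 5. The second of these had 150.1, 154, 0 and 221 CPM. On chromosome 3, CR450729.1 (start 1810940) and CR450842.1 (start 1873032) had 1 and 0 counts in tumor 5, with CR450842.1 at 31.8, 12.4, 0 and 18.71 CPM. Other missing genes lay elsewhere, such as the immune receptor nitr8 with 16.3, 10.1, 0 and 236 CPM and the T cell kinase itk with 6.46, 22.4, 0.0736 and 8.25 CPM. Members of multigene families such as the NLR and NITR genes share sequence, and the counting of such reads was not stated. In tumor 2 the gene si:rp71-36a1.5 was missing, with 0.209, 345, 224 and 140.2 CPM.

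Among the genes grouped by their gap, tumors 2 and 6 were high in 192 and tumor 2 alone in 64. Over all kept genes tumors 2 and 6 were both above the others in 18.2%, and tumor 2 was highest in 22.2%. The metalloprotease adamts8a had 54.3, 1.11, 0.884 and 44.1 CPM, high in tumors 2 and 6, and the receptor tyrosine kinase kita had 10.22, 1.23, 1.47 and 13.8 CPM, with the same pair high. In tumor 2 alone the secreted protein MSMP had 272, 19.9, 5.23 and 27.6 CPM, the heparan sulfatase sulf1 had 204, 51.8, 14.9 and 38.9 CPM, and the semaphorin receptor plxna3 had 53.3, 6.03, 9.50 and 8.87 CPM. Tumors 3 and 6 shared the secreted Wnt inhibitor sfrp5, with 1.04, 112, 0.663 and 110.2 CPM. The sialyltransferase st3gal7 had 36.9, 0.123, 38.2 and 0.0887 CPM and was found in tumors 2 and 5 alone above its floor. Tumors 2 and 5 were also above the others in the membrane protein emp2, with 553, 127, 593 and 125 CPM.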

How the data were processed

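One deposited table was analysed, and only its raw count columns of the 4 CCDC6-RET libraries were used. These counts per gene were deposited by the authors as whole numbers, after alignment with STAR to GRCz10. STAR 2.3 and DESeq2 are named in the submitters' processing notes, a later STAR release in the study's methods. The counter, its strand setting and the annotation are not given in the sources used here. Overlapping genes and near-identical copies are therefore uncertain. Columns of the 5 BRAF(V600E) libraries, size-factor normalized values with their mean, and DESeq2 fold changes, statistics and p-values of the authors were not used.

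Genes with at least 10 counts in 2 or more of the 4 libraries were kept. Counts were scaled by TMM in edgeR 4.0.16 (R 4.3.3), which also gave the biological coefficient of variation. Log2 CPM used a prior count of 2, and a fold between tumors divides CPM values and is not given where a tumor has 3 counts or fewer. The index of dispersion was tested with a chi-square distribution (scipy 1.17.1) against Poisson counts, adjusted over all kept genes. The steps were tested on simulated counts. Depth limits precision: 3 counts are 0.209 to 0.369 CPM, and such floors cover counting error only.

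The genes described and the lists were chosen with earlier results of these data known, and the circadian clock list was added after its values were seen. Of 1666 list entries in 32 lists, 1479 matched a symbol of the file, 21 the symbol in another case, 21 a symbol of the reference table, and 145 were not matched. Named genes were the 25 with the largest mean, the 4 most and 3 least variable of each bin, the genes with the largest gap of each pattern (8 where 1 tumor was high, 4 otherwise), for each list the 4 highest means and 3 largest SD, all thyroid and ERK members, and ret, braf, ccdc6a and ccdc6b. The genes printed are part of these. Outside the rule, and chosen after their values were seen, are CR450729.1, CR450842.1, actc1b, alas2, arntl1a, atp5b, calcrla, ccne1, ciarta, ckma, col1a1a, cox4i1, epas1b, fgfr1a, fgfr2, fn1a, frs2b, hif1ab, hk2, hspa5, hspd1, krt5, ldhba, lum, marco, mcl1a, mcm2, met, mt-nd4, nkx2.2b, per1b, per2, pgk1, ptprz1b, serpinh1b, sulf1, tek, tp63 and vegfaa. The low markers elavl3, snap25a, myl7, fabp10a, mlpha, cd79a, cd79b, cd8a, lck, mpx and lyz are members of the lists that the rule does not name either. Alternatives were another scaling, filter, prior count and threshold, leaving out each library, thinning to the smallest library, and leaving out mitochondrially encoded genes. The last 2 were chosen after seeing the data. The values of 1 gene are not reported here, though counts and sums over lists include it.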

Additional observations from a re-analysis of the deposited data

Results flagged for a closer look

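In 14 of 177 results looked at (list sums on the log2 scale and genes named in the text), the highest or lowest tumor lay far from the other 3 by Dixon's ratio (the gap to the nearest tumor over the whole range) beyond its critical value for 4 samples. Chance flags about 1 in 20 groups that were not chosen by their values. Many genes here were named for a wide gap or spread, so that rate does not apply to them. Of the list sums only those of skeletal muscle and pigment cells were flagged, a share near the rate of chance. For tumor 6 the ratio was 0.878 in the summed skeletal muscle list (1900.1, 2016, 2024 and 3186 CPM), of which myoglobin (10.9, 8.49, 1.55 and 569 CPM) was the part that differed most. It was 0.838 in the summed pigment cell list (89.8, 94.5, 81.5 and 203 CPM), led by tspan36 (43.8, 47.9, 51.6 and 141 CPM, ratio 0.860). It was 0.835 in the small heat shock gene hspb8 (1.18, 1.11, 0.589 and 25.2 CPM) and 0.842 in ldha (1718 CPM in tumor 6, 179.5 to 256 CPM in the others) and 0.832 in pgk1 (1225 CPM, against 137 to 198 CPM).

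Tumor 5 stood below the other tumors in anxa2a (ratio 0.902, 941 CPM against 4123 to 4837 CPM). It did so too in si:ch211-181d7.3 (ratio 0.946, 0 counts) and in CR450729.1 (ratio 0.896, 1 count). It stood above them in pleiotrophin (ptn, ratio 0.908, 96.8 CPM against 3.45 to 4.73 CPM) and, by a small step, in the ATP synthase subunit atp5b (ratio 0.840, 869 CPM against 664 to 694 CPM). Tumor 3 was apart in tshr (ratio 0.845, 57.2 CPM against 150.4 to 179.6 CPM) and in rbfox1 (ratio 0.854, 44.4 CPM against 0.765 to 1.47 CPM). Tumor 2 was apart in si:rp71-36a1.5 (ratio 0.868, 3 counts).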

How the results depend on the processing

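Genes with a 4-fold range numbered 3132 as reported, 1567 with 10 counts required in all libraries, 1924 with a prior count of 10, and 7453 for a 2-fold range. Leaving out a library gave 1837 to 2118 genes, with 1837 without tumor 3, 1951 without tumor 5 and 1983 without tumor 6, since fewer libraries give smaller ranges. Genes with 1 or 2 tumors apart numbered 2312, and 1135 with 10 counts in all libraries, 3484 without a filter and 1415 with a prior count of 10, and this count has no version with a library left out. The biological coefficient of variation of 0.489 was 0.397 with 10 counts in all libraries and 0.534 without a filter, and 0.449 to 0.491 with a library left out. Genes beyond counting error numbered 11265 to 11847 with a library left out, and the share of the 25 largest genes was 13.7 to 14.6%. DESeq2 size factors and plain totals changed none of these counts by over 1.5 times. Plain totals did change which pattern held the most genes. Thinned to the smallest library, a step chosen after seeing the data, the counts were 12415, 2805 and 2023 genes. Of 1062 further values for list sums and named genes, 1053 moved by less than 1 SD over libraries. The other 9 were mean levels of the steady genes faf2, kpna4 and morc2 with a library left out. Apart from rescaling, leaving out 1 of 4 libraries cannot move a mean by 1 SD over the libraries. For such values the outcome was fixed in advance, so this count does not measure how stable they are. No paired analysis was possible because a single group was described, although CCDC6-RET and BRAF(V600E) libraries share replicate numbers. Levels per length were not run, as no transcript or coding lengths were at hand. Depth limits low genes: 3 counts are 0.209 to 0.369 CPM.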

Other observations

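Clock genes, a list added after its values were seen, were another set with tumor 6 at the top. Of 34 kept genes tumor 6 was highest in 19, against 25.4% of all kept genes, and tumor 3 lowest in 17, against 28.1%, and 11 ranged 4-fold or more, against 20.0% of all kept genes. The repressor bhlhe41, a basic helix-loop-helix factor, had 48.0, 42.2, 2.36 and 245 CPM, and the nuclear receptor nr1d2a had 347, 134, 16.6 and 497 CPM. Both were lowest in tumor 5 and highest in tumor 6. The repressor per1b had 8.97, 4.80, 13.99 and 25.5 CPM, and ciarta had 5.98, 3.08, 8.17 and 13.6 CPM, with tumor 6 again highest but tumor 3 lowest. The activator arntl1a had 70.07, 42.5, 41.5 and 55.4 CPM and the repressor per2 had 94.2, 114, 63.0 and 79.2 CPM, which differed less. The time of day at harvest was not stated.

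Heat shock genes differed in which tumor was highest. Of 42 kept genes of the immediate early and heat shock list, 14 ranged 4-fold, against 20.0% of all kept genes. The collagen chaperone serpinh1b had 229, 71.5, 710.2 and 152 CPM, and the mitochondrial chaperone hspd1 had 75.6, 80.0, 126 and 54.8 CPM, both highest in tumor 5. The small heat shock gene hspb8 had 1.18, 1.11, 0.589 and 25.2 CPM, highest in tumor 6 like hspb1. The survival gene mcl1b had 95.6, 62.9, 23.2 and 292 CPM, highest in tumor 6 and lowest in tumor 5, whereas its copy mcl1a had 209, 227, 249.9 and 269 CPM.

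Interferon response genes summed to 2242, 2619.5, 1830.3 and 1424 CPM, with 8 of 34 kept genes ranging 4-fold, and p53 targets summed to 4663, 3679.6, 3867 and 3958 CPM, with 6 of 32, against 20.0% of all kept genes. Genes of motile cilia summed to 257, 306, 234 and 341 CPM, with 11 of 33 ranging 4-fold, against the same 20.0%. Cartilage and bone genes summed to 542, 1072, 833 and 1149 CPM, with tumor 5 lowest in 13 of 20, against 25.2% of all kept genes. Smooth muscle and heart genes had a median difference of -0.09, 0.65, -0.90 and 0.99 on the log2 scale, so tumors 3 and 6 were high by the median, while the sum was largest in tumors 2 and 5 (868, 519, 874 and 534 CPM). B cell genes were highest in tumor 3 in 10 of 14, against 29.2% of all kept genes. Their sum was instead highest in tumor 6, with 1029, 1064, 717 and 1561 CPM, and the defining gene cd79b had 27 counts in all libraries. For the remaining lists (ionocytes, photoreceptors and lens, neuroendocrine genes, hox genes, liver, pancreas and gut, germ cells, T and NK cells, neutrophils), the summed levels ranged from 1.51-fold (ionocytes) to 3.70-fold (liver, pancreas and gut).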
